A study of Mus musculus with 29 samples.

Results

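mmu-miR-146a-5p, mmu-miR-146b-5p, mmu-miR-155-5p and mmu-miR-21a-5p, written without the mouse prefix from here on, are microRNAs (miRNAs), short RNAs that pair with messenger RNAs and repress them, and all are tied to inflammation. They were chosen by name, 4 of the 1183 miRNAs in the count table, and are described here across the tibialis anterior muscle, a muscle of the lower leg, and the serum of C57BL/6 mice. Small RNA was sequenced from 29 libraries. Young mice were 6 months old with the disease state control, with 5 muscle and 5 serum libraries. Old mice were 24 months old with the same disease state, with 5 muscle and 4 serum libraries. Disuse mice were 6 months old with atrophy induced by disuse, with 5 muscle and 5 serum libraries; how disuse was imposed and for how long is not given in the sources used here. No label states that the numbered samples come from separate animals; if they do not, the p-values reflect technical spread alone.

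Muscle libraries held 254624 to 5943445 counts and serum libraries 45176 to 309133, so a count of 0 allows a level of up to 11.8 CPM (counts scaled to the library total) in the shallowest muscle library and up to 66.4 CPM in the shallowest serum library, old serum 4. That limit is 3 counts and covers counting error only. The summed level of 6 miRNAs of striated muscle was 377020 to 523946 CPM in muscle and 636 to 4654 CPM in serum, and miR-122-5p of hepatocytes was 0 to 5.98 CPM in muscle and 202 to 2838 CPM in serum. Both sources carried the miRNAs their labels call for. Serum RNA was purified with another kit and 10 ng went into each library, against 2 µg for muscle, so extraction and input cannot be told apart from the source. In these bulk samples, fewer cells of a type and less RNA per cell cannot be told apart either.

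miR-146 and miR-155 are induced by NF-kappaB signalling in immune cells. miR-146 then represses the adaptors Irak1 and Traf6 upstream of NF-kappaB and so dampens the response, while miR-155 represses inhibitors such as Socs1 and Inpp5d and tends to prolong it. miR-21 is made in many cell types, rises in inflamed and fibrotic tissue, and represses Pdcd4. The mature sequences, from RefSeq, where all 4 were found by name, are shown because the seed (bases 2 to 8, in capitals) sets which messenger RNAs a miRNA can pair with, and because 2 of the 4 are nearly the same molecule.
miR-146a-5p: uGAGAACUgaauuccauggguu
miR-146b-5p: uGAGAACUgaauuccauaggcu
miR-155-5p: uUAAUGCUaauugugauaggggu
miR-21a-5p: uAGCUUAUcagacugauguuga

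miR-146a-5p and miR-146b-5p share 20 of 22 bases and the whole seed. They differ by G18A and U21C, with miR-146a-5p given first and positions counted from the 5′ end. Both differences lie outside the seed, so reads of the pair can be told apart only by bases 18 and 21. How reads that fit both were assigned is not given in the sources used here. Of the 1679 mature miRNAs in the RefSeq table, 0 others hold the seed of miR-155-5p, and 1 other, miR-21c, holds that of miR-21a-5p; miR-21c was not analysed here.

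The 4 miRNAs come from 4 loci (coordinates on GRCm38.p6, the same assembly as mm10). miR-146a-5p lies at chr11:43374435-43374456 on the minus strand, where the annotation has only its own gene, Mir146. miR-146b-5p lies at chr19:46342790-46342811 on the plus strand, in an intron of the protein-coding gene Mfsd13a. miR-155-5p lies at chr16:84714143-84714165 on the plus strand, in an exon of the long noncoding RNA Mir155hg. miR-21a-5p lies at chr11:86584120-86584141 on the minus strand, in the untranslated part of an exon of 1 transcript of Vmp1. Each host gene is transcribed from the same strand as its miRNA.

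miR-155-5p changed places with the other 3 between the 2 sources. In muscle miR-155-5p was the most abundant in 15 of 15 libraries, and in serum miR-146a-5p was the most abundant in 14 of 14 while miR-155-5p was the least abundant in 14 of 14. Of the counts of the 4 together, miR-155-5p made up 72.1% ± 5.89 in young muscle, 74.9% ± 7.68 in old muscle and 73.6% ± 4.67 in disuse muscle (SD, n = 5 each). miR-146a-5p made up 74.5% ± 11.03 in young serum (n = 5), 85.3% ± 2.07 in old serum (n = 4) and 75.3% ± 3.10 in disuse serum (n = 5). The 4 together took 0.158% to 0.375% of all counts in muscle libraries and 2.17% to 7.38% in serum libraries. Ligation to adapters differs between miRNA sequences, so the order is one of reads; mature lengths of 22 or 23 bases need no correction for length.

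**Figure D1:**
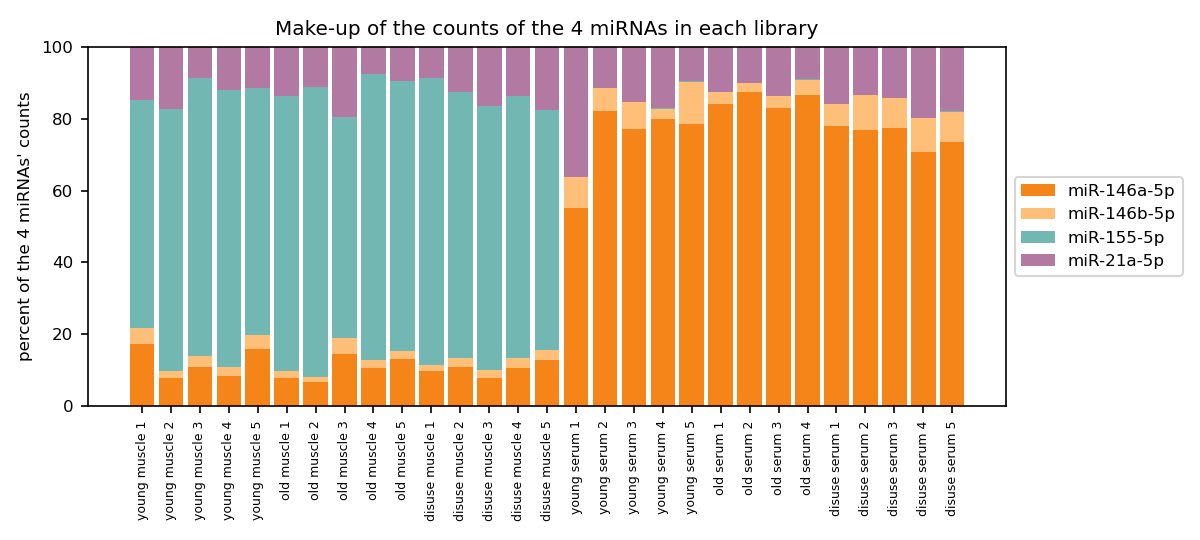
Stacked bars give the percent of the counts of the 4 miRNAs that each took (vertical axis) in each of the 29 libraries (horizontal axis). miR-155-5p fills most of all 15 muscle bars and is barely visible in the 14 serum bars, where miR-146a-5p fills most.

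miR-146a-5p was far higher in serum. In young muscle it was at 343, 123, 256, 198 and 339 CPM, and in young serum at 12584, 24219.5, 25342, 18331 and 21798 CPM, in the order of the replicate numbers. Every serum library lay above every muscle library, and its rank by counts was 5 to 21 in serum libraries and 77 to 115 in muscle libraries. In edgeR's quasi-likelihood test the log2 fold change of serum against muscle was 5.90 ± 0.43 in young mice (SE, 59.6-fold, adjusted p = 1.52e-10), 7.05 ± 0.31 in old mice (133-fold, adjusted p = 9.16e-15) and 6.22 ± 0.28 in disuse mice (74.5-fold, adjusted p = 3.08e-12).

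miR-146b-5p was also higher in serum, and by less. Its young muscle libraries were at 89.4, 30.9, 73.7, 61.6 and 80.3 CPM and its young serum libraries at 1983, 1881, 2462, 664 and 3313 CPM. The lowest serum library, young serum 4, was still above every muscle library. The log2 fold change of serum against muscle was 4.44 ± 0.43 in young, 4.44 ± 0.33 in old and 5.05 ± 0.20 in disuse mice (SE, adjusted p of edgeR's test 5.21e-13 to 1.05e-08).

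miR-21a-5p was at 294, 274, 203, 282 and 244 CPM in young muscle and at 8252, 3341, 4995, 3906 and 2630.3 CPM in young serum. The groups did not overlap. Its log2 fold change of serum against muscle was 3.54 ± 0.33 in young, 3.92 ± 0.28 in old and 3.64 ± 0.21 in disuse mice (SE, edgeR adjusted p 3.67e-11 to 5.94e-09). In muscle it stood at about the level of miR-146a-5p, which was higher in 6 of 15 libraries and lower in 9, and in serum it was lower than miR-146a-5p in 14 of 14 libraries and higher than miR-146b-5p in 13 of 14.

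miR-155-5p went the other way. It was at 1274, 1151, 1851, 1837 and 1472 CPM in young muscle and at 22.4, 62.7, 20.3, 30.9 and 58.1 CPM in young serum. The serum values rest on 3, 11, 2, 9 and 4 counts. miR-155-5p would not pass the filter on low counts in serum alone, and it entered these fits through its level in muscle, so its folds and p-values describe a miRNA near the limit of counting in serum. The log2 fold change of serum against muscle was -5.74 ± 0.44 in young mice (SE, 53.3-fold lower in serum), -5.14 ± 0.37 in old mice (35.2-fold lower) and -6.15 ± 0.29 in disuse mice (71.1-fold lower), with edgeR adjusted p of 3.91e-12 to 2.77e-10.

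The 3 miRNAs that passed the filter on low counts in both sources passed the threshold, an adjusted p under 0.05, in each of the 3 comparisons of serum with muscle, higher in serum each time. miR-155-5p, admitted through muscle, was below it in serum. Most other miRNAs passed too: 76.3% of the 190 miRNAs tested passed in young mice (32.6% higher and 43.7% lower in serum), 69.3% of 316 in old mice (24.7% and 44.6%) and 86.5% of 192 in disuse mice (38% and 48.4%). The median log2 fold change over all miRNAs tested was -0.34, -0.87 and -0.36. How many of all miRNAs have serum and muscle libraries that do not overlap is not given here. The lack of overlap is therefore not read as a trait of the members.

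**Figure D2:**
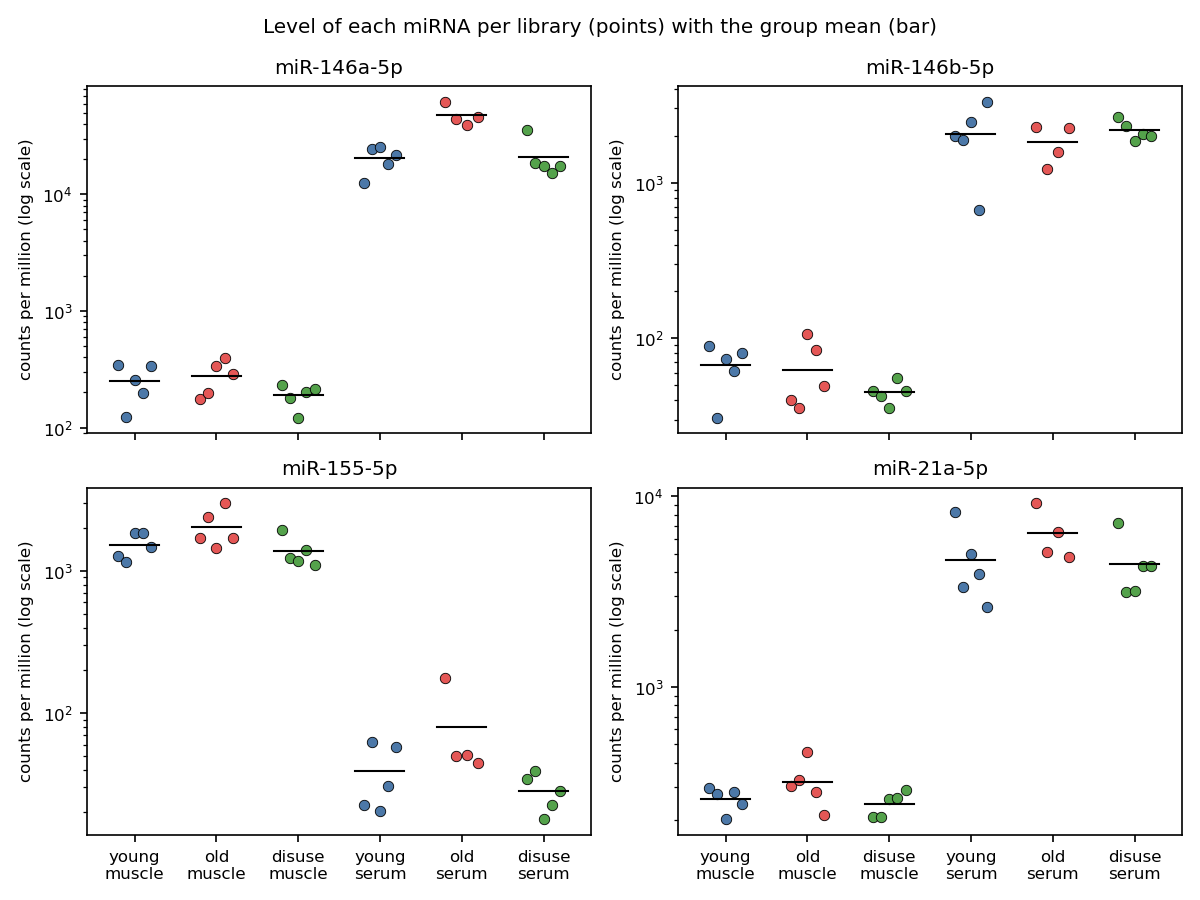
Each point is the level of a miRNA in a library, in CPM on a log axis, with the 6 groups side by side and a bar at the group mean. miR-146a-5p, miR-146b-5p and miR-21a-5p lie higher in every serum library than in any muscle library and miR-155-5p lies lower, and miR-146a-5p is higher in old serum than in the other serum groups. How many of all miRNAs lie apart in this way is not given here.

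Age was tested in serum by setting 24-month against 6-month mice, and miR-146a-5p rose. It was at 62112, 44525, 39594 and 46131 CPM in old serum, against 12584 to 25342 CPM in young serum, so the groups did not overlap. The means were 48090.4 ± 9753 CPM (SD, n = 4) and 20455 ± 5155 CPM (n = 5). The log2 fold change was 1.21 ± 0.30 (SE, 2.32-fold, 95% interval 0.57 to 1.85, edgeR adjusted p = 0.0184), rank 7 by p of the 165 miRNAs tested, and all 4 old libraries were above the young median. Of those 165, 9.7% passed, 2.42% higher and 7.27% lower in old serum, and 1 of the 3 members tested passed. How many of the 165 have old and young libraries that do not overlap is not given here.

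The near-identical miR-146b-5p did not pass with age in serum. Old serum was at 2298, 1231, 1571 and 2236 CPM, within the young range of 664 to 3313 CPM. Its log2 fold change was -0.15 ± 0.31 (SE, 95% interval -0.80 to 0.50, adjusted p = 0.827). miR-21a-5p was at 9166, 5120.3, 6476 and 4803 CPM in old serum, above the young median in 4 of 4 libraries but overlapping the young range. Its log2 fold change was 0.53 ± 0.26 (95% interval -0.01 to 1.06, edgeR adjusted p = 0.235). The median over all miRNAs tested was -0.09.

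The call of miR-146a-5p between old and young serum was lost without old serum 1 (log2 fold change 1.14, edgeR adjusted p = 0.0579) or old serum 2 (1.08, adjusted p = 0.0782). In place of 16 miRNAs, 9 passed without old serum 1 and 1 without old serum 2.

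Old serum was set against disuse serum too, groups that differ both in age and in disuse, and with the same 4 old libraries as above. miR-146a-5p was at 35297, 18367, 17337, 15359 and 17575 CPM in disuse serum, a mean of 20787 ± 8186 CPM (SD, n = 5). Disuse serum 1 was the highest of them and still below the lowest old library. The log2 fold change of old against disuse serum was 1.28 ± 0.30 (SE, 2.42-fold, edgeR adjusted p = 0.0304), with 2.42% of the 165 miRNAs passing (1.82% higher and 0.606% lower in old serum), and again 1 of 3 members passed. miR-21a-5p had 0.59 ± 0.26 (adjusted p = 0.359) and miR-146b-5p -0.23 ± 0.31 (adjusted p = 0.847).

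The call of miR-146a-5p between old and disuse serum depended on the processing. It was lost when libraries were scaled by their totals (1.21, adjusted p = 0.0680), with a filter of 10 CPM (1.22, adjusted p = 0.0582), with the replicate number as a block (1.27, adjusted p = 0.0617) and when any of 8 of the 9 libraries was left out (1.14 to 1.42 on the log2 scale, edgeR adjusted p 0.0684 to 0.167). Without disuse serum 1, the highest disuse library, it held at 1.46 (adjusted p = 0.0272).

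Between disuse and young serum, both at 6 months, 0 of 3 members passed, and 0% of the 165 miRNAs did in edgeR's test, with 20 at an unadjusted p under 0.05 and 0 passing in DESeq2. miR-146a-5p was at 15359 to 35297 CPM in disuse and 12584 to 25342 CPM in young serum, a log2 fold change of -0.07 ± 0.29 (SE, 95% interval -0.67 to 0.54). miR-146b-5p had 0.09 ± 0.29 (-0.52 to 0.69) and miR-21a-5p -0.06 ± 0.24 (-0.57 to 0.45).

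miR-155-5p was removed from the serum fits by the filter on low counts. Its old serum libraries held 14, 13, 9 and 2 counts and its disuse serum libraries 6, 5, 3, 7 and 5, so 2 of 14 serum libraries had fewer than 3 counts. In CPM old serum was at 176, 49.9, 50.9 and 44.3, and disuse serum at 34.4, 39.0, 17.9, 22.6 and 28.2, which do not overlap. In fits with no filter over 695 miRNAs, chosen after seeing the data, the log2 fold change was 1.37 ± 0.55 between old and disuse serum (SE, edgeR adjusted p = 0.672; 38 against 26 counts in all) and 0.99 ± 0.55 between old and young serum (adjusted p = 0.527; 38 against 29 counts). A permutation test on CPM gave p = 0.00794 between old and disuse serum, the smallest it can give (adjusted p = 0.0238). Between old and young serum its adjusted p was 0.202. The smallest p only restates that the groups do not overlap, at 2 to 14 counts a library. The shallowest library, old serum 4, is among the higher ones with 2 counts, a value under the limit that a count of 0 allows there.

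**Figure D3:**
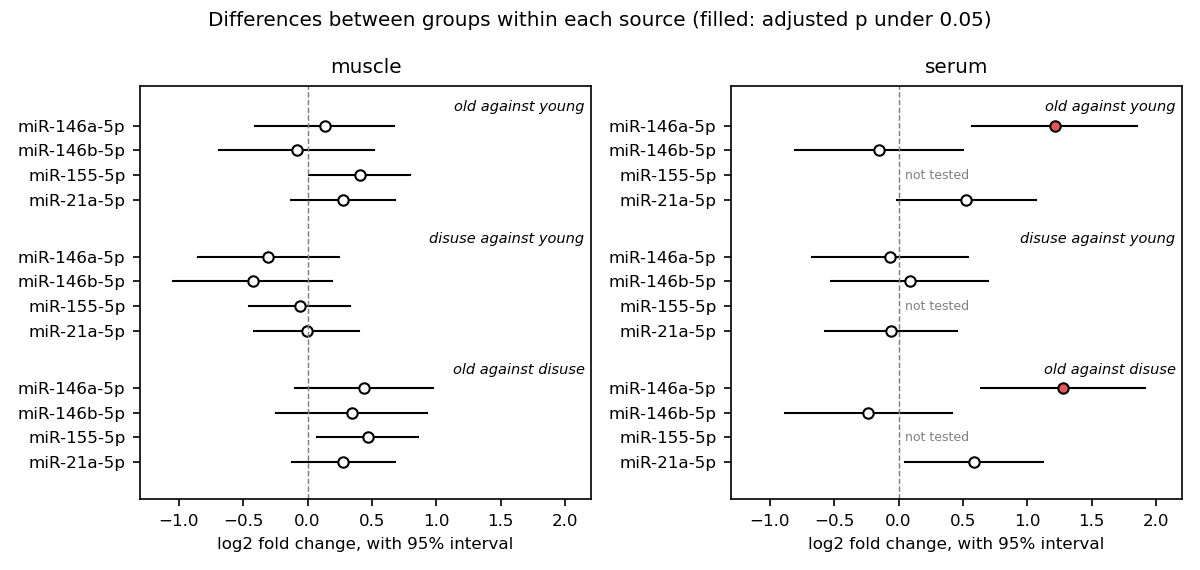
Points give the log2 fold change of each miRNA between groups of muscle (left) and serum (right), with 95% intervals from edgeR's quasi-likelihood fit; filled points have an adjusted p under 0.05. The filled points are miR-146a-5p in old against young serum (1.21) and in old against disuse serum (1.28).

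In muscle 0 of the 4 members passed in any comparison. Of the 4, miR-155-5p had the largest difference between old and young. Old muscle was at 1699, 2386, 1452, 2985 and 1692 CPM, a mean of 2043 ± 632 CPM against 1517 ± 320 CPM in young muscle (SD, n = 5 each). The groups overlapped, with 4 of 5 old libraries above the young median. The log2 fold change was 0.41 ± 0.19 (SE, 95% interval 0.01 to 0.80, edgeR adjusted p = 0.210). Of the 341 miRNAs tested there, 5.87% passed, 1.17% higher and 4.69% lower in old muscle.

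The other 3 differed less between old and young muscle. miR-21a-5p was at 301, 326, 458, 283 and 213 CPM in old muscle, a change of 0.27 ± 0.20 on the log2 scale (SE, edgeR adjusted p = 0.456). miR-146a-5p was at 174, 199, 336, 397 and 290.3 CPM, with 0.13 ± 0.26 (adjusted p = 0.800). miR-146b-5p was at 39.9, 35.4, 106, 83.8 and 49.4 CPM, with -0.09 ± 0.29 (adjusted p = 0.908), and all 3 overlapped the young libraries widely.

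Disuse muscle, at the same age as young muscle, also overlapped it for every member. miR-155-5p was at 1945, 1235, 1166, 1404 and 1105 CPM, a log2 fold change of -0.06 ± 0.19 (SE, 95% interval -0.45 to 0.33). miR-21a-5p was at 207 to 288 CPM, with a log2 fold change of -0.0045 ± 0.20 (-0.41 to 0.40). miR-146a-5p was at 122 to 232 CPM with -0.30 ± 0.26 (-0.85 to 0.24) and miR-146b-5p at 35.3 to 55.3 CPM with -0.43 ± 0.30 (-1.05 to 0.19). All disuse libraries lay below the young median for both miR-146 forms, with edgeR adjusted p of 0.809 and 0.677, and 0.293% of all miRNAs passed.

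Against disuse muscle, old muscle had the higher mean for all 4 members, none of which passed where 3.52% of all miRNAs did (0.587% higher and 2.93% lower in old muscle). miR-155-5p had a log2 fold change of 0.47 ± 0.19 (SE, edgeR adjusted p = 0.202), with 5 of 5 old libraries above the disuse median and overlapping ranges. miR-146a-5p had 0.44 ± 0.26 (adjusted p = 0.467), miR-146b-5p 0.34 ± 0.28 (adjusted p = 0.591) and miR-21a-5p 0.28 ± 0.19 (adjusted p = 0.553).

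An interaction term fitted to all 29 libraries tested whether the change with age differs between the sources. For miR-146a-5p the change in serum exceeded that in muscle by 1.20 ± 0.42 on the log2 scale (SE, 95% interval 0.34 to 2.06), which did not pass after adjustment in edgeR (adjusted p = 0.148) and did in DESeq2 (1.34, adjusted p = 0.0461). The difference was 0.66 ± 0.51 for miR-155-5p, kept in this fit through its muscle counts alone, 0.38 ± 0.34 for miR-21a-5p and 0.06 ± 0.44 for miR-146b-5p (adjusted p 0.561 to 0.968). Of 241 miRNAs, 0.83% passed. For the change with disuse 0% passed in edgeR, with 24 at an unadjusted p under 0.05 and 0 in DESeq2, and the largest difference of the members was that of miR-146b-5p at 0.76 ± 0.43 (adjusted p = 0.646).

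The 2 miR-146 forms were then compared within each library, which takes scaling out. In muscle miR-146a-5p had 3.74 ± 0.40 counts for each count of miR-146b-5p in young, 4.75 ± 1.08 in old and 4.19 ± 0.68 in disuse mice (SD, n = 5 each). The 5 young muscle libraries lay at 3.83, 3.99, 3.47, 3.21 and 4.22, a narrow band. In serum the ratio was 6.35, 12.9, 10.3, 27.6 and 6.58 in young, 27.03, 36.2, 25.2 and 20.6 in old, and 13.3, 7.90, 9.39, 7.51 and 8.84 in disuse mice. The old serum libraries are all above the disuse ones, and young serum 4 is the young library within the old range.

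On the log2 scale the ratio of miR-146a-5p to miR-146b-5p was higher in serum than in muscle by 1.56 in young, 2.52 in old and 1.16 in disuse mice, with no overlap (two-sided exact permutation tests, each p = 0.00794, the smallest this design can give, and adjusted p = 0.0238 over 27 tests on 3 ratios). Old exceeded disuse serum by 1.54, also with no overlap (exact permutation p = 0.00794, adjusted p = 0.0238). Old exceeded young serum by 1.29, which did not pass (exact permutation p = 0.0476, adjusted p = 0.117). Within muscle the differences were 0.33 for old against young, 0.15 for disuse against young and 0.18 for old against disuse, none of which passed (exact permutation adjusted p 0.214 to 0.525). In all, 9 of the 27 tests passed.

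The ratio of miR-146a-5p to miR-21a-5p passed in the same comparisons. It was higher in serum than in muscle by 2.34 in young, 3.14 in old and 2.62 in disuse mice, and higher in old than in disuse serum by 0.71 on the log2 scale (exact permutation adjusted p = 0.0238 each). Between old and young serum it differed by 0.72 with overlap (exact permutation adjusted p = 0.352). The ratio of miR-146b-5p to miR-21a-5p passed between disuse serum and disuse muscle alone, by 1.46 (exact permutation adjusted p = 0.0238). With 1 of 10 libraries left out, the smallest possible p of these tests stayed at 0.00794. With 1 of 9 left out it was larger, so a pass lost there does not tell how firm a difference is. The direction was kept in each pass. For both ratios of miR-146a-5p, the passes of old against disuse serum (exact permutation adjusted p 0.0536 to 0.107) and of old serum against old muscle (0.0536 to 0.0857) were lost with any of the 9 libraries left out. Those of young serum against young muscle were lost in 5 of 10 runs for miR-146a-5p to miR-146b-5p and in 4 of 10 for miR-146a-5p to miR-21a-5p, and those of disuse serum against disuse muscle were kept in 10 of 10.

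**Figure D4:**
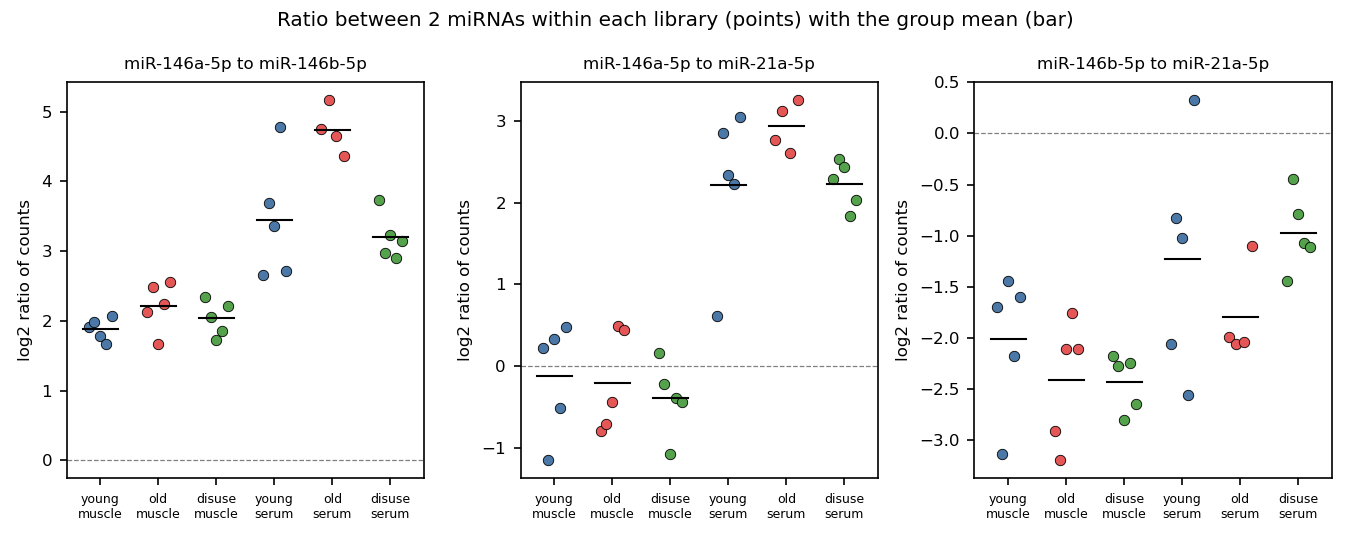
Each point is the log2 ratio of the counts of 2 miRNAs within a library, by group, with a bar at the group mean, for the 3 pairs named above the panels. The miR-146a-5p to miR-146b-5p ratio spans 1.67 to 2.55 in muscle and 2.66 to 5.17 in serum, with the 4 old serum libraries at 4.36 to 5.17.

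The members were also compared with every other tested miRNA for likeness of level across libraries, as a description with no p, since the most alike are picked from many and libraries share depth and scaling. Across the 15 muscle libraries the miRNA most like miR-146a-5p was miR-146b-5p, and the reverse (r = 0.85, rho = 0.84, the highest of 340). The r was 0.87 with group means taken out and 0.80 without the 2 libraries farthest from the median of miR-146a-5p. Next came miR-17-5p (r = 0.60) and miR-1955-5p (0.57) for miR-146a-5p, and miR-183-5p (0.51) and miR-1983 (0.50) for miR-146b-5p. Without the 2 libraries farthest from the member's median, these r were 0.22, 0.53, 0.37 and 0.55. Across the 14 serum libraries the same pair had r = 0.07 and rho = -0.0022, rank 72 of 164, and r = 0.31 with group means taken out. There the miRNAs most like miR-146a-5p were miR-192-5p (r = 0.89, rho = 0.85), miR-423-3p (r = 0.81, rho = 0.81) and miR-10a-5p (r = 0.78, rho = 0.59). With group means taken out their r was 0.68, 0.71 and 0.79, and without the 2 farthest libraries it was 0.79, 0.69 and 0.49. Those most like miR-146b-5p were miR-10b-5p (r = 0.73), miR-365-3p (0.71) and miR-125a-5p (0.69), or 0.73, 0.86 and 0.70 with group means taken out.

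In muscle miR-155-5p was most like miR-30c-5p (r = 0.91, rho = 0.90), miR-196a-5p (r = 0.82, rho = 0.66) and miR-30c-2-3p (r = 0.78, rho = 0.72, n = 15). Its r with the other members was 0.34 for miR-146a-5p, 0.06 for miR-146b-5p and -0.27 for miR-21a-5p, so the 4 did not move as a block. These r were 0.19, -0.0045 and -0.73 with group means taken out. In muscle miR-21a-5p was most like miR-29c-3p (r = 0.67), miR-3102-5p.2-5p (0.64) and the leukocyte miRNA miR-142-5p (0.61, or 0.30 without the 2 farthest libraries). In serum it was most like miR-215-5p (0.76), miR-130b-3p (0.67) and miR-29a-3p (0.64), or 0.57, 0.75 and 0.37 with group means taken out.

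Leukocytes express all 4, so their miRNAs are given beside the members. Of 5 leukocyte miRNAs (miR-142-3p, miR-142-5p, miR-150-5p, miR-223-3p and miR-342-3p), 0 passed between old and young serum, where miR-146a-5p rose and 9.7% of all 165 passed. Their log2 fold changes went both ways: 0.88 for miR-342-3p, 0.55 for miR-223-3p, -0.0044 for miR-142-5p, -0.42 for miR-150-5p and -0.64 for miR-142-3p. miR-142-5p, a blood-cell miRNA, was at 10105 ± 3543 CPM in old (SD, n = 4) and 10154 ± 2974 CPM in young serum (n = 5), and the list's summed level was 10714 to 22788 CPM in old and 11742 to 19339 CPM in young serum. Of 4 erythrocyte miRNAs 2 fell, where 7.27% of all 165 did: miR-144-5p (-2.16, edgeR adjusted p = 0.0154) and miR-451a (-0.82, adjusted p = 0.0363), and their summed level was 127715 to 265981 CPM in old and 208315 to 355652 CPM in young serum. With library totals that leave out these 4, the log2 fold change of miR-146a-5p between old and young serum was still called; between old and disuse serum it was 1.14 and was not (adjusted p = 0.0692).

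In muscle 1 of the 5 leukocyte miRNAs rose with age, where 1.17% of all 341 did: miR-342-3p (1.17 ± 0.27, edgeR adjusted p = 0.00679), beside the difference of miR-155-5p, which did not pass; its part in that difference was not tested. The summed leukocyte level in muscle was 12322 to 27979 CPM in young and 18730 to 29328 CPM in old libraries and was mostly miR-150-5p. miR-142-5p was at 35.4 ± 18.3 CPM in young muscle, 38.5 ± 22.3 in old and 21.3 ± 10.2 in disuse muscle (SD, n = 5 each). For each count of it, muscle held 59.1 ± 43.9, 66.7 ± 35.5 and 84.5 ± 54.9 counts of miR-155-5p. Some of these ratios rest on few counts of miR-142-5p. It had 2 counts in disuse muscle 3 (ratio 148.5) and 7 in young muscle 3 (ratio 129). In serum miR-142-5p exceeded miR-155-5p in 14 of 14 libraries. For each count of miR-142-5p there were 0.0046 ± 0.0038 counts of miR-155-5p in young, 0.0074 ± 0.0032 in old and 0.0028 ± 0.0011 in disuse serum. In each comparison of serum with muscle, 4 of the 5 leukocyte miRNAs were higher in serum and 1 was lower. Of all miRNAs tested, 24.7% to 38% passed as higher and 43.7% to 48.4% as lower. In young and disuse mice the lower 1 was miR-150-5p (-3.28 and -3.54), so miR-142-5p does not stand for the whole list.

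**Figure D5:**
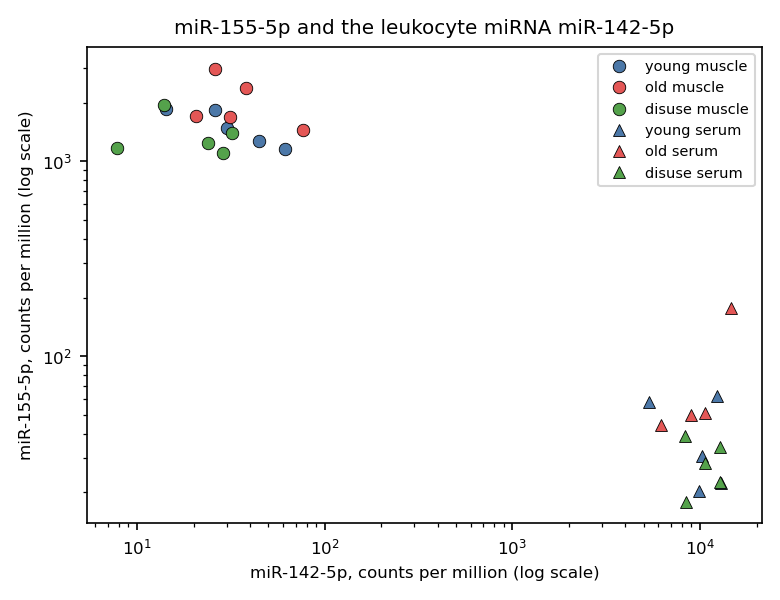
Each point is a library placed by its level of miR-142-5p (horizontal) and of miR-155-5p (vertical), both in CPM on log axes, with circles for muscle and triangles for serum. The 15 muscle libraries are high in miR-155-5p and low in miR-142-5p, and the 14 serum libraries are the reverse. miR-142-5p is 1 of the 5 listed leukocyte miRNAs, and miR-150-5p among them is lower in serum than in muscle in young and disuse mice.

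A list of 19 other miRNAs tied to inflammation is given beside the members. It includes the opposite arms of the members' own hairpins, miR-146a-3p, miR-146b-3p, miR-155-3p and miR-21a-3p, so it is not independent of them. Of these, miR-21a-3p was tested in serum (0.79 in old against young, edgeR adjusted p = 0.442). Of the 14 tested in muscle, 0 passed between old and young (median log2 fold change 0.19, against -0.01 for all miRNAs tested), 0 between disuse and young (median -0.06, against -0.0019) and 1 between old and disuse (median 0.13, against -0.01). Of all 341 miRNAs, 5.87%, 0.293% and 3.52% passed in these comparisons. The listed miRNA that passed was miR-34a-5p, a transcriptional target of p53, which was higher in old than in disuse muscle (0.88 ± 0.24, edgeR adjusted p = 0.0348). In the comparison of old with young muscle the smallest p-values were those of miR-34a-5p (0.65), miR-222-3p (0.54), miR-223-3p (0.85) and miR-221-3p (0.47), none passing (adjusted p 0.108 to 0.123).

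Of the 11 tested in serum, 0 rose and 2 fell between old and young (median -0.23, against -0.09), where 2.42% of all 165 rose and 7.27% fell. They were miR-181a-5p (-0.85 ± 0.21, edgeR adjusted p = 0.0184) and miR-181b-5p (-1.12 ± 0.31, adjusted p = 0.0274), members of a family that tunes T cell receptor and endothelial inflammatory signalling. let-7i-5p had -0.81 (adjusted p = 0.0649) and miR-223-3p, a miRNA of neutrophils, 0.55 (adjusted p = 0.181). Between disuse and young serum 0 of 11 passed (median -0.36, against -0.09), where 0% of all 165 did. Between old and disuse serum 0 of 11 passed (median -0.08, against -0.04), where 2.42% of all 165 did, and miR-132-3p had 1.09 (edgeR adjusted p = 0.226). Between serum and muscle, 1 listed miRNA of 11 was higher in serum and 6 were lower in young mice. In old mice 2 and 7 of 14 were, and in disuse mice 1 and 8 of 11. Of all miRNAs tested, 24.7% to 38% passed as higher and 43.7% to 48.4% as lower. The list medians were -0.90, -0.69 and -1.34, against -0.34, -0.87 and -0.36. miR-223-3p was higher in serum in all 3 groups (5.41, 5.26 and 5.60), and let-7e-5p was lower (-3.92, -4.55 and -4.53), with edgeR adjusted p of 1.49e-07 or less.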

How the data were processed

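Per the labels' protocols, libraries were made from total RNA with the TruSeq small RNA kit, with up to 15 cycles of PCR and a size selection of 145 to 160 bp; Bowtie and mm10 stand in the submitters' processing notes. The authors deposited 1 table of raw counts of reads per mature miRNA, with no normalization. Of its 1183 miRNAs, 695 have a value for each of 29 libraries and were used. The other 488 lack 1 value and were left out of the main fits. With their last 15 values read as the muscle libraries, they hold 0.0518% of muscle counts. edgeR 4.0.16 in R 4.3.3 (glmQLFit, glmQLFTest, TMM factors, filterByExpr, Benjamini-Hochberg) was fitted over 15 muscle or 14 serum libraries, over the 2 groups compared for serum against muscle, and over all 29 for interactions. Fold changes come from these fits; CPM use library totals; the SE is the log2 fold change divided by the square root of F. Ratios used a pseudocount of 0.5. DESeq2 1.42.0 and limma 3.58.1 (voom) were alternatives. The fits were tested on simulated data. Libraries of a group differed beyond counting noise in all 56 pairs (chi-square per degree of freedom at least 13.4). Replicate numbers were not treated as pairs, since no label says whether they mark the same animal. In 0 of 9 comparisons did every pair correlate above 0.1, a check on few pairs that cannot exclude pairing. Tests between the sources treat muscle and serum libraries as independent. Genes named are the 4 members, their opposite arms, the listed inflammation miRNAs that passed or had the smallest p-values, cell markers, and the 3 most alike miRNAs. The members, lists and tests were chosen with earlier results of these data known. Reads were amplified without molecular identifiers, so counting limits cover counting error only.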

Additional observations from a re-analysis of the deposited data

Results flagged for a closer look

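Of 42 sets of 4 or 5 libraries checked for a value far from the rest (Dixon's test at the 95% level, which chance passes in about 1 of 20), 4 were flagged. miR-146a-5p was at 35297 CPM in disuse serum 1, against 15359 to 18367 CPM in the other 4 disuse serum libraries. miR-21a-5p was at 7203 CPM in the same library, against 3167 to 4291 CPM in the others. miR-155-5p was at 176 CPM in old serum 1, from 14 counts, against 44.3 to 50.9 CPM in the other 3. The log2 ratio of miR-146b-5p to miR-21a-5p was -1.10 in old serum 4, the shallowest library, against -2.05 to -1.99 in the other 3.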

How the results depend on the processing

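miR-146a-5p, miR-146b-5p and miR-21a-5p kept their direction and their call between serum and muscle in every alternative run and with any library left out. miR-155-5p kept its direction too. It entered these fits through its muscle counts, so its call there adds no support. The call of miR-146a-5p between old and young serum held in the 10 alternatives that kept all libraries (1.13 to 1.31 on the log2 scale, edgeR, DESeq2 or limma adjusted p 0.00183 to 0.0489), and with libraries left out its log2 fold change was 1.08 to 1.35. Between old and disuse serum that call was lost with library totals (1.21), a filter of 10 CPM (1.22), the replicate block (1.27) and totals without the erythrocyte miRNAs (1.14), the last added after seeing the data; the range with a library left out was 1.14 to 1.46. Its age interaction passed in DESeq2's test (1.34). Sign changes were limited to differences that passed in no setting. With the upper-quartile scaling, miR-146a-5p was at -0.082 in old against young muscle. In disuse against young serum, miR-21a-5p was at 0.027 with DESeq2 size factors, 0.0097 with the upper quartile, 0.13 with no filter and 0.13 with the 10 CPM filter, 0.027 in DESeq2's test and 0.072 with only the 2 groups, and miR-146a-5p at 0.0015 with the upper quartile, 0.023 with totals, 0.11 with no filter, 0.095 with the 10 CPM filter and 0.041 with only the 2 groups. With the replicate block miR-146b-5p was at 0.091 in old against young serum. Its age interaction was -0.10 with totals, -0.11 with no filter and -0.13 with the 10 CPM filter, and the disuse interaction of miR-21a-5p was -0.063 with that filter. The block moved no other call of a member. The cause of these changes was not tested.

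The counts of miRNAs called moved more. Old against young muscle gave 36 with the upper quartile in place of 20. Disuse against young muscle gave 2 with the upper quartile, no filter, the incomplete rows or only the 2 groups, and 0 with the 10 CPM filter, limma-voom or the replicate block, in place of 1. Old against young serum gave 5 with totals, 7 with the 10 CPM filter, 6 with only the 2 groups and 9 with totals without the erythrocyte miRNAs, in place of 16. Disuse against young serum gave 5 with no filter in place of 0. Old against disuse serum gave 0 with totals, the 10 CPM filter, the replicate block and totals without the erythrocyte miRNAs, in place of 4. With no filter, serum against muscle gave 270 in young mice and 327 in disuse mice, in place of 145 and 166. The age interaction gave 6 with DESeq2 size factors, 5 with the upper quartile, 6 with no filter, 11 in DESeq2's test, and 1 in limma-voom or with the replicate block, in place of 2. The disuse interaction gave 5 with no filter in place of 0. With a library left out, the counts ran from 0 to 2 (disuse against young muscle), 1 to 20 (old against young serum), 0 to 3 (old against disuse serum), 1 to 9 (age interaction) and 0 to 1 (disuse interaction).

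With a library left out, the log2 fold changes of these members crossed 0 without passing. miR-146b-5p ran from -0.33 to 0.12 in old against young muscle, -0.34 to 0.20 in old against young serum, -0.089 to 0.43 in disuse against young serum and -0.30 to 0.39 in the age interaction. miR-155-5p ran from -0.24 to 0.026 in disuse against young muscle and -0.69 to 0.041 in the disuse interaction. miR-21a-5p ran from -0.096 to 0.041 in disuse against young muscle, -0.23 to 0.19 in disuse against young serum and -0.097 to 0.29 in the disuse interaction. miR-146a-5p ran from -0.25 to 0.060 in disuse against young serum. The log2 ratio of miR-146a-5p to miR-146b-5p ran from 0.24 to 0.46 in old against young muscle (past the threshold without old muscle 3), 1.22 to 1.75 and 2.38 to 2.65 in young and old serum against muscle, 1.39 to 1.67 in old against disuse serum and -0.44 to 0.092 in disuse against young serum. That of miR-146a-5p to miR-21a-5p ran from -0.33 to 0.073 in old against young muscle, 2.09 to 2.75 and 3.00 to 3.31 in young and old serum against muscle, 0.60 to 0.82 in old against disuse serum and -0.39 to 0.22 in disuse against young serum. That of miR-146b-5p to miR-21a-5p ran from -0.70 to -0.28 in disuse against young muscle (past the threshold without young muscle 2), -0.15 to 0.21 in old against disuse muscle and -0.077 to 0.64 in disuse against young serum. Ratio tests with 1 of 9 libraries left out have a larger smallest possible p, so a pass lost there does not tell how firm a difference is. Depth limits miR-155-5p in serum, at 2 to 14 counts a library.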

Other observations

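Each hairpin yields a second arm, and the opposite arms of the members were scarce. miR-21a-3p took 4.47% of the counts of both arms over the 15 muscle libraries (433 counts beside 9264 of miR-21a-5p) and 1.06% over the 14 serum libraries (120 beside 11205). By library its share was 6.16% ± 2.93 in young, 3.20% ± 1.44 in old and 4.95% ± 1.49 in disuse muscle (SD, n = 5 each). In serum it was 1.03% ± 0.58 in young (n = 5), 1.22% ± 0.28 in old (n = 4) and 0.794% ± 0.687 in disuse mice (n = 5). miR-146b-3p had 60 counts in muscle, or 3.2% of both arms, and 2 counts in serum beside 4195 of miR-146b-5p. For miR-146a-3p and miR-155-3p the table lacks 1 value; with the last 15 values read as the muscle libraries, which cannot be checked, muscle held 3 counts of miR-146a-3p beside 7770 of miR-146a-5p and 2 counts of miR-155-3p beside 53796 of miR-155-5p. In muscle the counts of miR-155 were thus nearly all of the 5p arm.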
